A study of Mus musculus with 16 samples.

Results

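The 10 genes described here carry Wnt and beta-catenin signalling in the brain endothelium, from ligand to target gene. They were taken as a named list of 54193 genes, namely Wnt9a, Wnt9b, Fzd4, Lrp5, Tspan12, Reck, Ctnnb1, Lef1, Axin2 and Apcdd1, by gene name and with no threshold on a measured value. Messenger RNA was sequenced in 16 libraries of cultured mouse brain microvascular endothelial cells (mBMEC), to ask what loss of Ccm3 (gene Pdcd10), propranolol and rapamycin did to transcripts in these cells. All cultures came from mice aged 8 to 10 weeks with a Cdh5(PAC)-CreERT2 transgene, a Cre recombinase driven in endothelial cells, and both Pdcd10 alleles floxed, and each culture pooled the brains of several mice and was selected with puromycin. WT cells (n = 3) received no 4-hydroxytamoxifen (4-OHT) and KO cells (n = 3) did, so Ccm3 loss and exposure to 4-OHT cannot be told apart. WT+P (n = 2) and KO+P (n = 3) were the same cells after 24 h with 10 µM propranolol, a beta-adrenergic blocker, and WT+R (n = 2) and KO+R (n = 3) after 24 h with 100 nM rapamycin, an inhibitor of mTORC1.

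Wnt ligands bind a Frizzled receptor and an LRP co-receptor and thereby stop the breakdown of beta-catenin, which enters the nucleus and acts with TCF and LEF factors on target genes. In brain vessels this pathway is known for building and maintaining the blood-brain barrier. Neurons and glia give most of the ligand in the living brain (Wnt7a, Wnt7b and Norrin), RECK with ADGRA2 carries the Wnt7 signal, and TSPAN12 strengthens the Norrin signal through FZD4 and LRP5. Beta-catenin has a further role as a link between VE-cadherin and the cytoskeleton at cell junctions.

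The libraries held 18.83 M to 26.2 M counts, and 14838 genes passed the filter on low counts, all 10 members among them. The endothelial label held, since 10 endothelial markers summed to between 5853 and 11220 TPM (a transcript level per length, scaled to the library's total) in every library. Marker lists of neurons, oligodendrocytes, astrocytes, microglia and choroid plexus epithelium each summed to under 5 TPM, fibroblast markers reached 60.1 TPM, and mural markers reached 517 TPM, most of it Acta2, as the other 8 of 9 mural markers had medians under 1 TPM over the 16 libraries. Acta2 lay at 557 and 618 CPM (counts scaled to library size) in WT+R against 32.5 to 169.7 CPM in WT (log2 fold change 2.74, edgeR adjusted p = 0.0469), at 171 and 309.9 CPM in WT+P, at 22.0 to 44.4 CPM in KO, at 33.6 to 80.7 CPM in KO+P and at 60.2 to 161 CPM in KO+R. The summed endothelial markers were lower with rapamycin, at 6616 to 7374 TPM in WT+R against 8232 to 11220 TPM in WT and at 6986 to 8571 TPM in KO+R against 8798 to 9963 TPM in KO, and they were 5853 to 7887 TPM in WT+P and 6011 to 8965 TPM in KO+P. The part of these marker levels in the results was not tested, and fewer cells of a type and less RNA per cell cannot be told apart in bulk samples. Pdcd10 lay at 9.72, 11.0 and 9.73 CPM in KO and at 31.2 and 47.0 CPM in WT replicates 2 and 3, but the library labelled WT replicate 1 held 11.5 CPM, at the level of the KO libraries and against its label (log2 fold change of KO against WT −1.56, SE 0.40, edgeR adjusted p = 0.42).

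Per transcript length, Ctnnb1, which encodes beta-catenin, stood first among the members with a median of 1021 TPM over the 16 libraries (724 to 1312). Lrp5 followed at 93.3 TPM, then Tspan12 at 32.0, Fzd4 at 24.1, Wnt9a at 16.2, Apcdd1 at 10.3, Reck at 9.72, Lef1 at 3.18, Axin2 at 0.439 and Wnt9b at 0.132 TPM. Ctnnb1 exceeded Lrp5, and Lrp5 exceeded Tspan12, in 16 of 16 libraries. Apcdd1 and Reck had no order beyond their spread, as Apcdd1 was the higher in 8 of 16, and Fzd4 exceeded Wnt9a in 12 and Axin2 exceeded Wnt9b in 11 of the 16. The receptors and beta-catenin were thus well expressed in culture, whereas the feedback gene Axin2 and the ligand Wnt9b lay near the detection limit.

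Gene by gene, no member passed the test in any of 9 comparisons (edgeR's quasi-likelihood test, Benjamini-Hochberg adjusted p under 0.05 and a change over 1.5-fold; for the 2 interactions the adjusted p alone). The same test called 0.00674% of 14838 genes in KO against WT, in KO+P against KO and in WT+P against WT. It called 1.51% in KO+R against KO, 1.4% in WT+R against WT, and 0% in KO+P against WT+P, in KO+R against WT+R and in both interactions of genotype with drug. At an unadjusted p under 0.05 there were 2 of 10 members in KO against WT and in KO+P against KO, 1 in KO+R against KO, in WT+P against WT and in WT+R against WT, 2 in each comparison of KO with WT under a drug, and 0 in the interactions. Of all 14838 tested genes, 900 were so in KO against WT, 1870 in KO+P against KO and 1862 in KO+R against KO. There were 1464 in WT+P against WT, 1877 in WT+R against WT, 918 in KO+P against WT+P and 849 in KO+R against WT+R. The interactions with propranolol and rapamycin had 107 and 113. DESeq2 called 1 member, Wnt9a in KO+R against KO, and 0 in the rest. The median log2 fold change of the 10 members was 0.15 in KO against WT and −0.32 in KO+P against KO, where the median of all tested genes was −0.01 in both, and −0.08 in KO+R against KO, where it was −0.02. The comparisons share libraries, so they are not independent of each other.

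Libraries with the same replicate number (called culture 1, 2 or 3 here, although the labels give the number alone) deviated together, and a fit with that number as a block called 1 of 10 members in KO+R against KO, again Wnt9a, and 0 elsewhere. Among all tested genes it called 0.182% in KO against WT, 0.142% in KO+P against KO, 4.98% in KO+R against KO, 0.0809% in WT+P against WT, 4.56% in WT+R against WT, 0.0876% in KO+P against WT+P and 0.0944% in KO+R against WT+R. DESeq2 called 0.478%, 1.08%, 3.11%, 0.835%, 3.64%, 0.455% and 0.502% in the same order, and 0% and 0.00368% in the interactions with propranolol and rapamycin. DESeq2 with the block called 2 of 10 members in KO against WT (Wnt9a and Wnt9b), 2 in KO+P against KO (Lrp5 and Lef1), and Wnt9a alone in KO+R against KO, WT+R against WT and KO+P against WT+P. Wnt9b reached the test through the libraries where it was high, so its call is a description only. Over all genes that setting called 2.67%, 7.12%, 7.92%, 0.737%, 6.66%, 1.91% and 2.23% in the same order and 0.0441% and 0.0661% in the interactions.

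**Figure D1:**
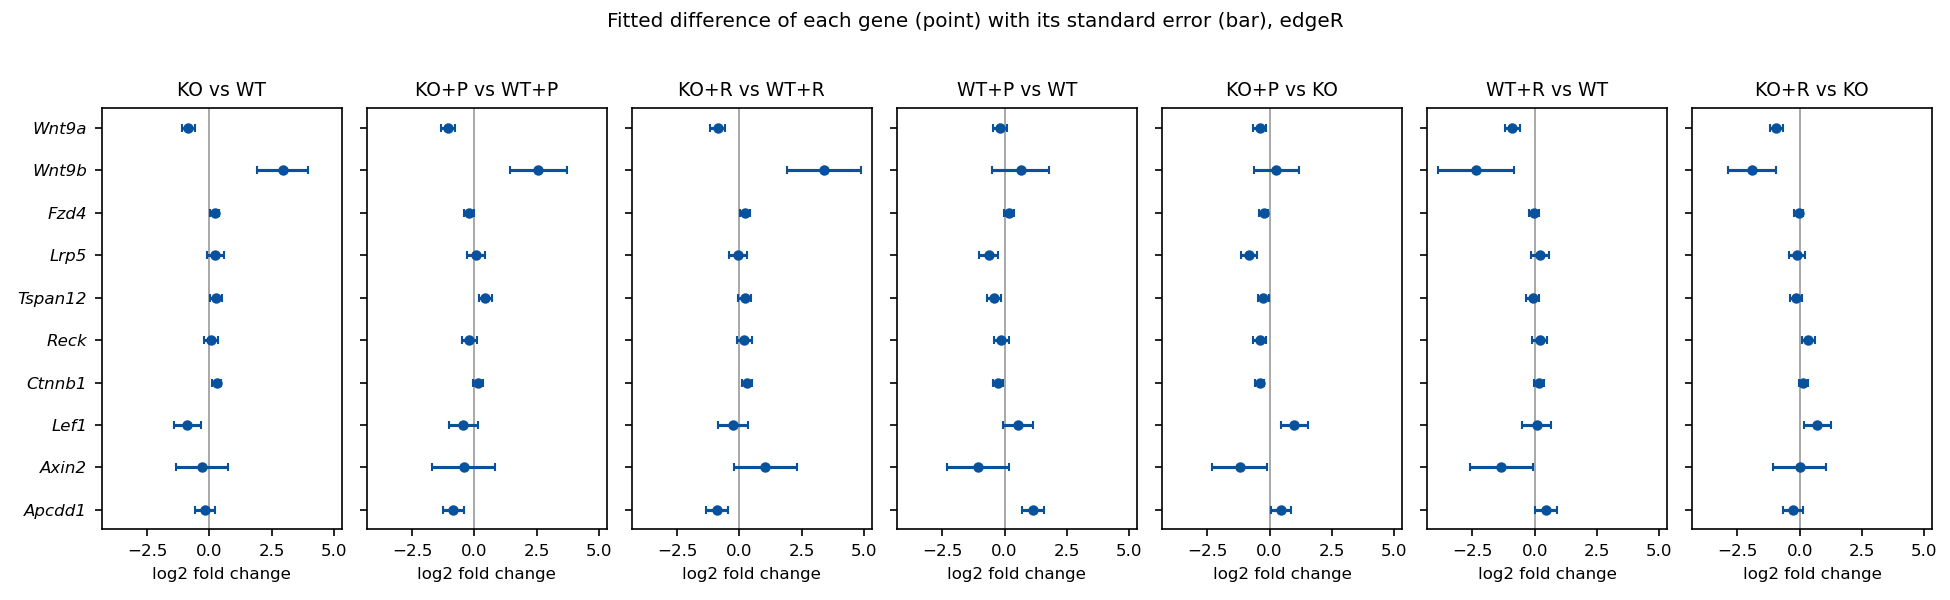
Fitted log2 fold change (point, x axis) of each of the 10 members (rows) with its standard error (bar) in 7 comparisons, one per panel, from edgeR. The bars of Wnt9a stay on the lower side of 0 in KO against WT with and without drug and in both rapamycin comparisons, while those of Axin2 and Wnt9b are wide.

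Wnt9a, a secreted ligand (ENSMUSG00000000126.13, chromosome 11 of GRCm39, 59197567 to 59224378, plus strand), showed the most even pattern. It measured 60.9, 49.1 and 82.1 CPM in WT and 41.6, 37.8 and 27.8 CPM in KO, so that the groups did not overlap. With propranolol it measured 59.2 and 53.5 CPM in WT+P and 29.4, 27.3 and 24.8 CPM in KO+P. With rapamycin the values were 45.7 and 22.6 CPM in WT+R and 24.3, 16.1 and 15.5 CPM in KO+R, and the KO+R libraries lay below all KO libraries. The lowest level in the series was thus that of KO cells with rapamycin.

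In KO+R against KO the log2 fold change of Wnt9a was −0.94 (SE 0.27) without a call in the fit that ignores the replicate number (edgeR adjusted p = 0.126). With the replicate number as a block, it fell by 0.96 on the log2 scale (SE 0.23, edgeR adjusted p = 0.0299), a fit that called 4.98% of all tested genes in this comparison. The adjusted p ranged from 0.00196 to 0.164 over the 8 settings tried beside the main one. Within the same numbered culture the log2 CPM of KO+R minus KO was −0.78, −1.23 and −0.84. In WT+R against WT the log2 fold change was −0.90 (SE 0.30, edgeR adjusted p = 0.188), with −0.41 and −1.11 within cultures. The interaction of genotype with rapamycin was −0.04 (SE 0.40) on the log2 scale.

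For Ccm3 loss, the log2 fold change of Wnt9a was −0.84 (SE 0.27) in KO against WT (edgeR adjusted p = 0.533). It was −1.05 (SE 0.29) in KO+P against WT+P (edgeR adjusted p = 0.497) and −0.88 (SE 0.29) in KO+R against WT+R (edgeR adjusted p = 0.643). The KO library was the lower in each of the 7 same-numbered pairs of these 3 comparisons, by 0.38 to 1.56 on the log2 scale. These pairs share the replicate numbers 1 to 3, so they may not be independent. The replicate 1 pair of KO against WT used the WT library whose Pdcd10 level went against its label. WT replicate 3 held the highest Wnt9a level of all, and without it the KO against WT value moved to −0.62. Propranolol left Wnt9a within −0.50 to 0.12 of the untreated library of the same culture.

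Wnt9b, the closest relative of Wnt9a (ENSMUSG00000018486.4, chromosome 11, 103618189 to 103640655, minus strand), was a rare transcript. WT libraries held 5, 7 and 6 counts (0.23, 0.261 and 0.246 CPM), and KO libraries 9, 48 and 82 counts (0.349, 1.82 and 3.64 CPM). KO+P libraries held 0.458, 1.83 and 4.75 CPM and KO+R libraries 0.159, 0.902 and 0.445 CPM. WT+P held 0.139 and 0.631 CPM, and WT+R held 0 counts and 2 counts, where a count of 0 allows up to 0.125 CPM. All KO libraries lay above all WT libraries, but KO replicate 1 only just so, and the gene passed the filter on low counts through the KO and KO+P libraries.

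The log2 fold change of Wnt9b in KO against WT was 2.94 (SE 1.02, edgeR adjusted p = 0.605). When the blocked fit left out WT replicate 1, whose Pdcd10 level went against its label, the value was 3.27 (SE 0.57, edgeR adjusted p = 0.0479), and over the 7 settings tried beside the main one the adjusted p ran from 0.014 to 0.674. As the gene entered the test through the libraries where it was high, these p-values are given as a description and support no call. The value was 2.57 (SE 1.15) in KO+P against WT+P and 3.39 (SE 1.48) in KO+R against WT+R (edgeR adjusted p = 0.792 and 0.839). Rapamycin in KO cells gave −1.91 (SE 0.96, edgeR adjusted p = 0.448), and the KO+R library was below its KO partner by 0.83, 0.95 and 2.81 on the log2 scale. In KO+P replicate 3, where Wnt9b was highest, it had 92 counts against 480 for Wnt9a.

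The stretches before the starts of both genes are shown because these ligands head the pathway. They come from RefSeq (GRCm38.p6 table) and were located by exact match in GRCm39 at chr11:59197506-59197566 (plus strand) and chr11:103640656-103640897 (minus strand), cut where the annotated first exon begins. Capitals would mark the core motif of TCF and LEF factors, CTTTGA or its reverse complement TCAAAG, and neither window holds it.
Wnt9a: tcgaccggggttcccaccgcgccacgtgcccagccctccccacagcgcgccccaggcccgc
Wnt9b: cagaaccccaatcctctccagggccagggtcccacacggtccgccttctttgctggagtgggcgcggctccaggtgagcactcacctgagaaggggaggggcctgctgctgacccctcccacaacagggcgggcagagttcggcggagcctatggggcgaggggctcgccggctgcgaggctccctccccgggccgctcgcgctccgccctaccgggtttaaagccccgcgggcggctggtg
Of 32851 promoter windows of 250 bases, 13.8% hold the motif on either strand. Of the 12 windows found for 8 members, 1 holds it, an internal start of Lef1.

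**Figure D2:**
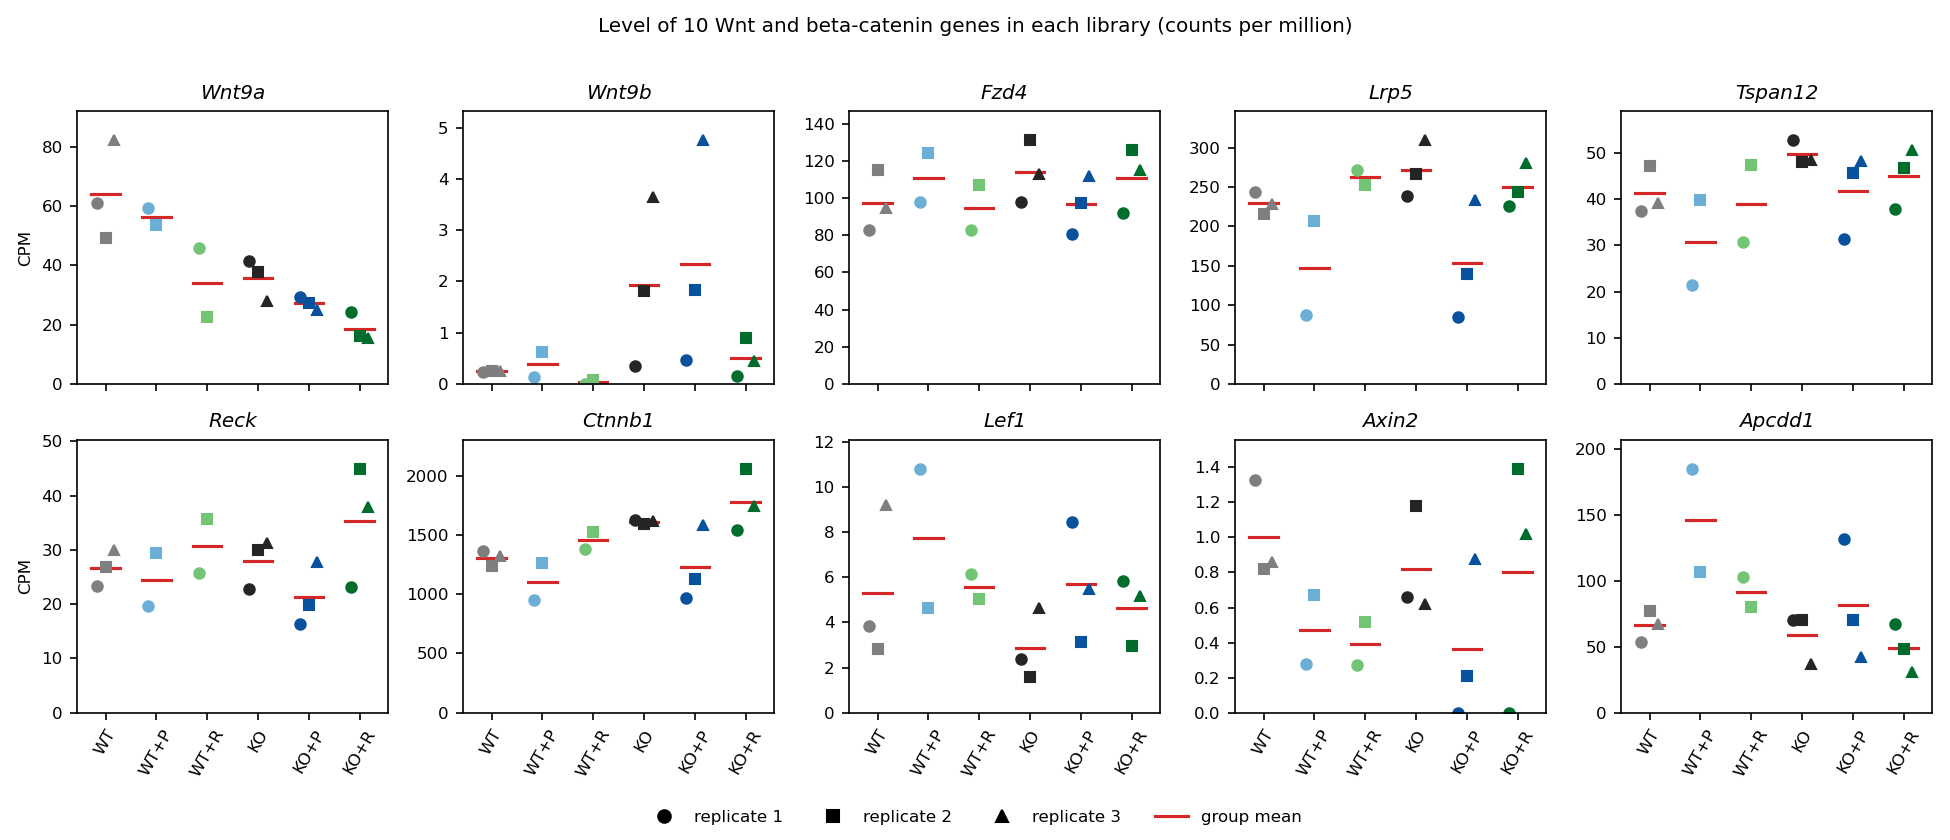
CPM (y axis, from 0, a scale per gene) of the 10 members in each library, by group (x axis). Symbols mark the replicate number and red lines the group means. Wnt9a runs down from WT to KO+R, and the propranolol libraries of replicate 1 are the lowest 2 for Lrp5 and Ctnnb1 and the highest 2 for Apcdd1.

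Fzd4, the Frizzled receptor for Norrin and Wnt ligands (ENSMUSG00000049791.6, chromosome 7, 89053563 to 89062342, plus strand), stayed in a narrow range. It measured 82.8, 115 and 94.5 CPM in WT, 97.7, 131 and 113 CPM in KO, 97.8 and 124 CPM in WT+P and 80.7, 97.1 and 112 CPM in KO+P. With rapamycin it measured 82.7 and 107 CPM in WT+R and 91.8, 126 and 115 CPM in KO+R. The groups overlapped in all comparisons, and replicate 1 was the lowest of its group in each. Within cultures KO exceeded WT by 0.24, 0.19 and 0.25 on the log2 scale (fitted 0.23, SE 0.18, edgeR adjusted p = 0.996). Propranolol gave 0.24 and 0.12 in WT cultures and −0.27, −0.43 and −0.01 in KO cultures, opposite in sign, and the interaction was −0.43 (SE 0.27, unadjusted p = 0.14 in edgeR, adjusted p = 1). With the block it was −0.46 (SE 0.14, unadjusted p = 0.00575 in edgeR, adjusted p = 1).

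Lrp5, the co-receptor (ENSMUSG00000024913.18, chromosome 19, 3634821 to 3736643, minus strand), measured 243, 216 and 228 CPM in WT and 239, 266 and 309 CPM in KO. With propranolol it measured 87.5 and 207 CPM in WT+P and 85.2, 140 and 234 CPM in KO+P, so that every propranolol library lay below every untreated library of its genotype. With rapamycin it measured 272 and 252 CPM in WT+R and 226, 244 and 280.5 CPM in KO+R, within or close to the untreated range. In KO+P against KO the log2 fold change was −0.83 (SE 0.33, edgeR adjusted p = 0.354). Within cultures it was −1.49, −0.92 and −0.40 in KO and −1.47 and −0.06 in WT. Replicate 1 thus showed the largest difference in both genotypes, and without KO+P replicate 1 the fitted value was −0.54.

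Tspan12, the tetraspanin partner of FZD4 (ENSMUSG00000029669.16, chromosome 6, 21771389 to 21852619, minus strand), measured 37.4, 47.2 and 39.1 CPM in WT and 52.7, 48.0 and 48.4 CPM in KO. All KO libraries were above all WT libraries, the nearest of them by under 1 CPM. The propranolol libraries of replicate 1 were the lowest of their genotype, at 21.5 CPM in WT+P and 31.4 CPM in KO+P, where the other propranolol libraries held 39.8, 45.7 and 48.2 CPM. Rapamycin libraries held 30.7 and 47.3 CPM in WT+R and 37.8, 46.7 and 50.6 CPM in KO+R. The log2 fold change of WT+P against WT was −0.43 (SE 0.26, edgeR adjusted p = 0.61), and −0.05 without WT+P replicate 1. In KO+P against WT+P it was 0.44 (SE 0.26, edgeR adjusted p = 0.831).

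Reck, a membrane-anchored glycoprotein that presents Wnt7 ligands (ENSMUSG00000028476.15, chromosome 4, 43875514 to 43944806, plus strand), measured 23.3, 26.9 and 30 CPM in WT and 22.8, 29.9 and 31.3 CPM in KO. KO+P libraries held 16.3, 19.8 and 27.7 CPM and KO+R libraries 23.1, 44.9 and 37.9 CPM, while WT+P held 19.6 and 29.4 CPM and WT+R 25.7 and 35.7 CPM. Untreated WT and KO cells overlapped fully, and the treated libraries overlapped the untreated ones of their genotype. The log2 fold change was −0.40 (SE 0.26) in KO+P against KO and 0.33 (SE 0.26) in KO+R against KO (edgeR adjusted p = 0.543 and 0.692). Within cultures propranolol gave −0.48, −0.59 and −0.17 and rapamycin 0.02, 0.58 and 0.28 in KO cells.

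Ctnnb1 (ENSMUSG00000006932.19, chromosome 9, 120757422 to 120789579, plus strand) was abundant in every library. It measured 1366, 1234 and 1319.6 CPM in WT and 1625, 1593 and 1619.7 CPM in KO, and the KO libraries lay together above WT. Propranolol libraries held 947 and 1259 CPM in WT+P and 969.8, 1127 and 1579.6 CPM in KO+P, and rapamycin libraries 1385 and 1523 CPM in WT+R and 1538, 2055 and 1743 CPM in KO+R. The log2 fold change in KO+P against KO was −0.40 (SE 0.18, edgeR adjusted p = 0.393), with −0.74, −0.50 and −0.04 within cultures. All KO libraries exceeded all WT libraries, by 0.25, 0.37 and 0.30 on the log2 scale within cultures, without a call. These are transcript levels, and the protein or its place in the cell was not measured here.

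Part of the reads of Lrp5 and Ctnnb1 were assigned to short transcripts that code for no full protein. Lrp5-203, a transcript annotated for nonsense-mediated decay, took between 18.9% (KO+R replicate 2) and 64.5% (KO+R replicate 1) of the Lrp5 reads. Ctnnb1-215, a retained intron near the end of the gene, took between 13.0% (WT replicate 3) and 39.9% (KO+P replicate 1) of the Ctnnb1 reads. Both shares were highest in replicate 1 of KO, KO+P and KO+R, at 55.8%, 60.5% and 64.5% for Lrp5-203 and 31.3%, 39.9% and 36.7% for Ctnnb1-215. Both transcripts reach close to the end of their gene. Coverage along the genes and RNA quality were not tested, so these shares do not show a difference in transcript use. Per length these short transcripts weighed more, since Lrp5-203 had a median of 46.4 TPM and Ctnnb1-215 of 434 TPM, next to the gene medians of 93.3 and 1021 TPM given above. The TPM level of both genes thus rests in part on these short transcripts. The coding Ctnnb1-201 alone had a median of 465 TPM, above the 93.3 TPM of Lrp5. The coding Lrp5-201 alone had a median of 44.8 TPM, above the 32.0 TPM of Tspan12.

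**Figure D3:**
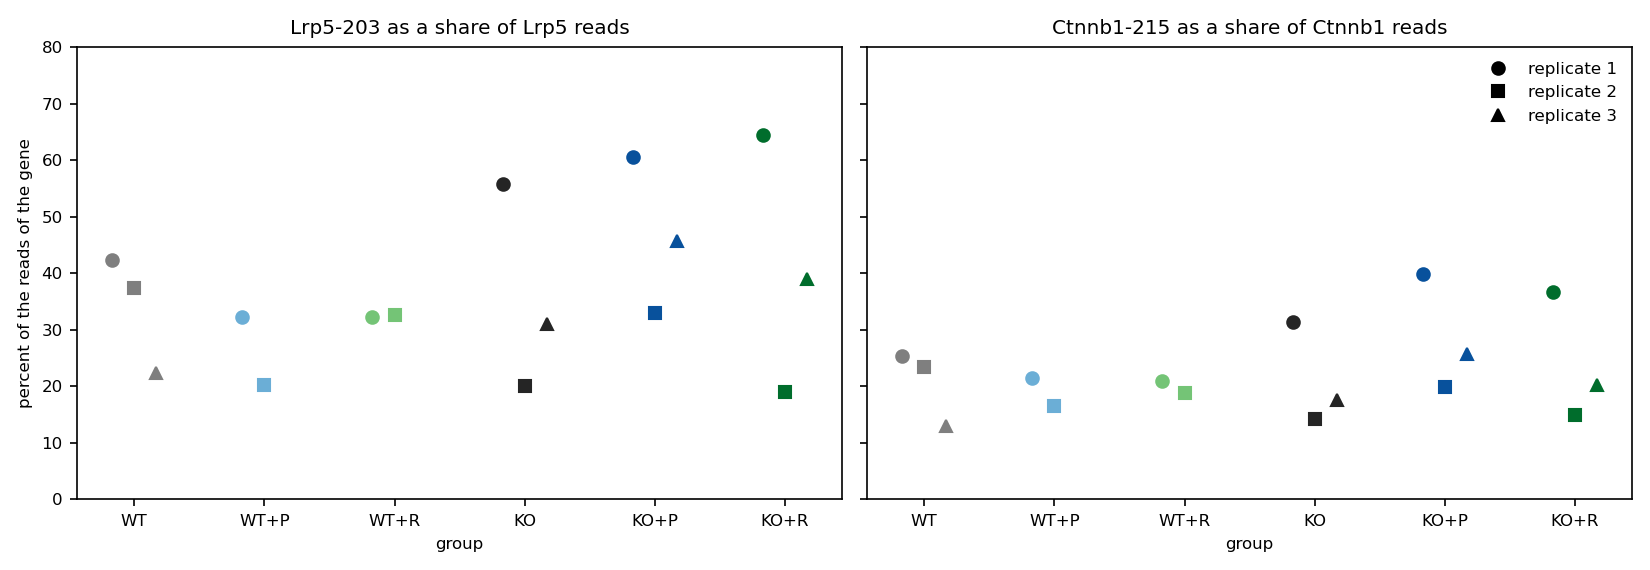
Share of the reads of Lrp5 assigned to Lrp5-203 (left) and of the reads of Ctnnb1 assigned to Ctnnb1-215 (right), in percent (y axis, from 0), for each library by group (x axis), with the replicate number as the symbol. The replicate 1 libraries of KO, KO+P and KO+R stand highest in both panels, from 55.8% to 64.5% and from 31.3% to 39.9%.

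Lef1, the nuclear partner of beta-catenin and itself a target of the pathway (ENSMUSG00000027985.16, chromosome 3, 130903919 to 131018005, plus strand), measured 3.82, 2.84 and 9.19 CPM in WT and 2.40, 1.56 and 4.62 CPM in KO. WT+P libraries held 10.8 and 4.65 CPM, KO+P libraries 8.45, 3.13 and 5.47 CPM, WT+R libraries 6.13 and 5.03 CPM and KO+R libraries 5.82, 2.95 and 5.17 CPM. Groups overlapped in every comparison, but within cultures the order was constant. KO was below WT by 0.65, 0.83 and 0.98 on the log2 scale, and the drug-treated library was above the untreated one in all 10 same-numbered pairs. These pairs are not independent, as each untreated library in them was paired with both drugs. Propranolol gave 1.48 and 0.70 in WT and 1.78, 0.97 and 0.24 in KO, and rapamycin 0.67 and 0.81 in WT and 1.25, 0.89 and 0.16 in KO. None of these passed the test, the fitted values with their standard errors being −0.89 (SE 0.54) in KO against WT, 0.99 (SE 0.54) in KO+P against KO, 0.70 (SE 0.54) in KO+R against KO and 0.54 (SE 0.59) in WT+P against WT. The edgeR adjusted p-values were 0.967, 0.455, 0.679 and 0.809. The value of WT+P against WT turned to −0.18 without WT+P replicate 1.

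Most Lef1 reads were assigned to Lef1-203, which is annotated with a start inside the gene. Its share had a median of 60.3%, 64.2% and 56.2% in cultures 1, 2 and 3. It was 29.1% in WT replicate 1, 33.0% in KO+R replicate 2 and 0% in KO replicate 2. With 41 to 233 counts a library, this assignment does not show where transcripts began. The window before the RefSeq start next to that of Lef1-203 (chr3:130906190-130906439 of GRCm39, plus strand) lies in an intron of longer Lef1 transcripts and of the antisense gene Lef1os1. It is shown as the one nearest to the annotated start of Lef1-203, and it holds no TCF and LEF motif.
Lef1: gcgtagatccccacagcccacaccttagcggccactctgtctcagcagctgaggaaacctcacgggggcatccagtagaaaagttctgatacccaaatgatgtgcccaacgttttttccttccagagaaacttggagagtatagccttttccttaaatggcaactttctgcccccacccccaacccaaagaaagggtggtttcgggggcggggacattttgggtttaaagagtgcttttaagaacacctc
Antisense Lef1os1 overlaps 16.3% of the exonic bases of Lef1, and the libraries do not mark strand.

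Axin2, the negative feedback gene that is the usual readout of beta-catenin activity (ENSMUSG00000000142.17, chromosome 11, 108811169 to 108841609, plus strand), was close to absent. WT libraries held 1.33, 0.822 and 0.861 CPM and KO libraries 0.659, 1.18 and 0.622 CPM. KO+P libraries held 0, 0.208 and 0.878 CPM and KO+R libraries 0, 1.39 and 1.02 CPM, with 0.277 and 0.67 CPM in WT+P and 0.269 and 0.516 CPM in WT+R. A count of 0 allows up to 0.126 CPM in KO+P replicate 1 and 0.149 CPM in KO+R replicate 1. All drug-treated WT libraries were below all WT libraries, whereas those of KO cells overlapped, and the standard errors of its log2 fold changes were above 1 in each comparison, so differences of a doubling were not detectable at this depth.

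Apcdd1, a membrane inhibitor of Wnt signalling and a beta-catenin target in barrier endothelium (ENSMUSG00000071847.16, chromosome 18, 63055302 to 63094250, plus strand), measured 53.8, 77.4 and 67.6 CPM in WT and 70.0, 70.4 and 37.1 CPM in KO. WT+P libraries held 185 and 107 CPM and KO+P libraries 132, 70.4 and 41.9 CPM. WT+R libraries held 103 and 80.6 CPM and KO+R libraries 67.2, 48.6 and 31.1 CPM. Both drugs thus lay above untreated WT in WT cells, while in KO cells the treated and untreated libraries overlapped. The log2 fold change in WT+P against WT was 1.14 (SE 0.44, edgeR adjusted p = 0.475), with 1.78 and 0.47 within cultures, and 0.69 without WT+P replicate 1. It was 0.79 with the block, and 0.35 when the blocked fit also left out WT replicate 1. In KO+R against WT+R it was −0.91 (SE 0.44, edgeR adjusted p = 0.912), and the interactions with propranolol and rapamycin had adjusted p-values of 1 in edgeR.

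Propranolol differences were often larger in culture 1. In WT+P replicate 1 and KO+P replicate 1 alike, Lrp5, Tspan12, Reck and Ctnnb1 lay below and Lef1 and Apcdd1 above the untreated library of that culture. In KO cells culture 2 gave the same directions for Lrp5 (−0.92), Ctnnb1 (−0.50), Reck (−0.59) and Lef1 (0.97), with the Reck difference larger than in culture 1. Of 14838 genes, 19.6% differed by over 2-fold between WT+P and WT in replicate 1 and 4.91% in replicate 2, and between KO+P and KO the shares were 18.7%, 10.1% and 5.22% in replicates 1, 2 and 3. With rapamycin the same shares were 14.4% and 10.4% in WT and 13.0%, 9.99% and 10.3% in KO.

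**Figure D4:**
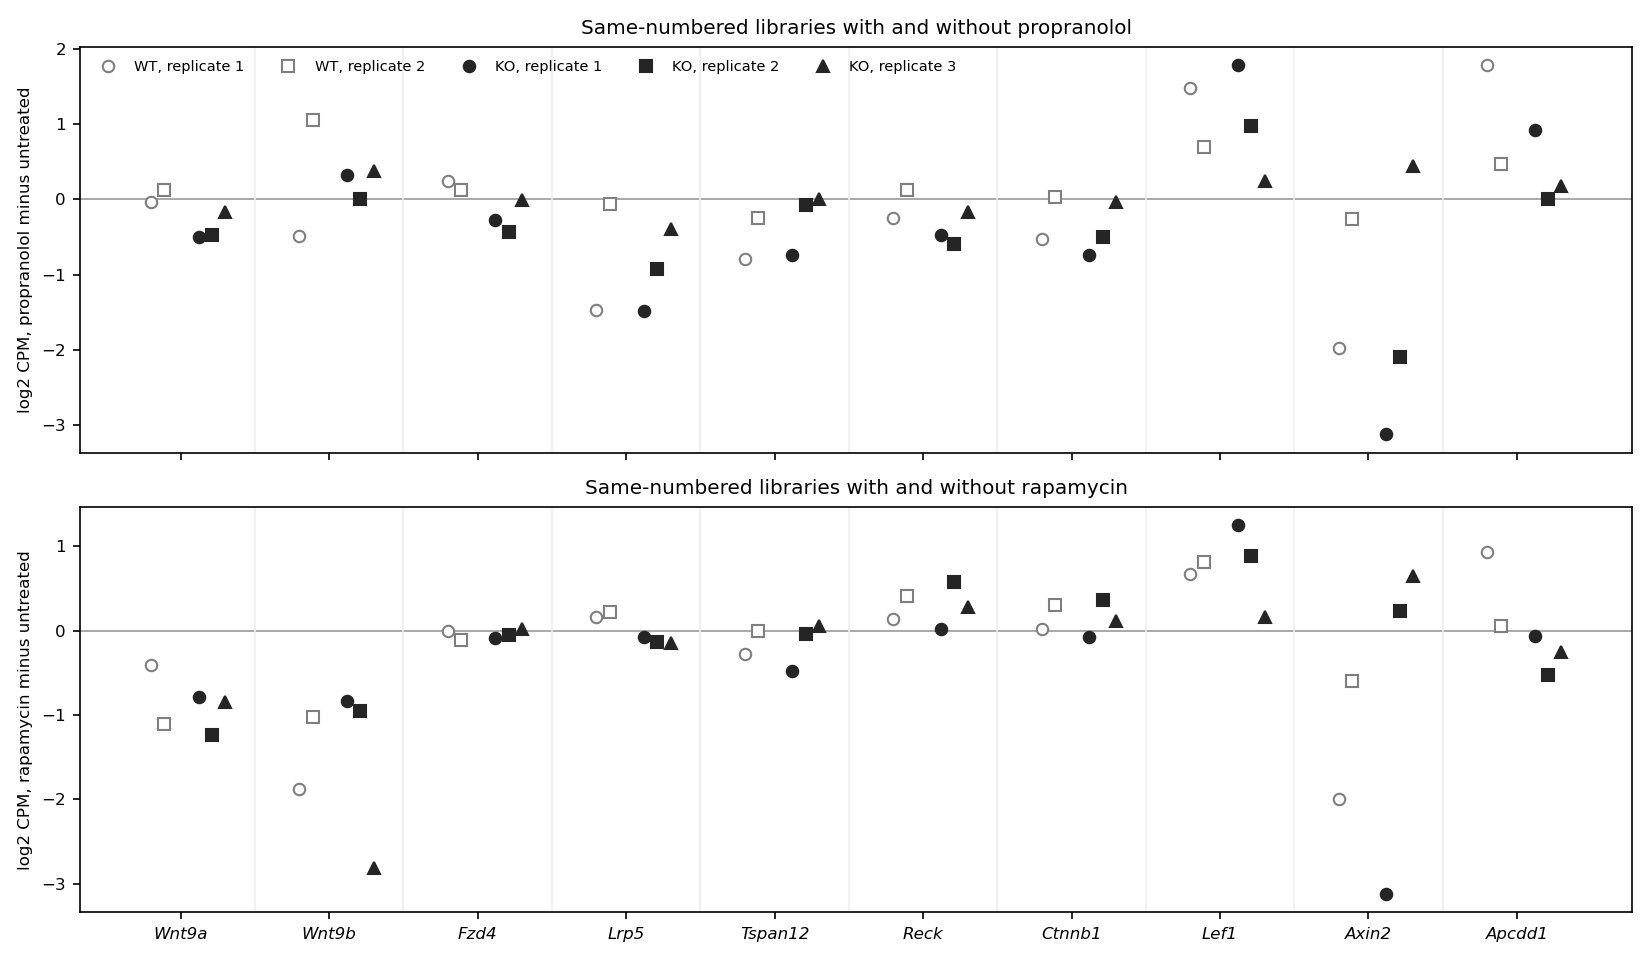
Difference in log2 CPM (y axis) between the drug-treated and the untreated library of the same genotype and replicate number for each member (x axis), with propranolol above and rapamycin below. Open symbols are WT and filled symbols KO cells. Lef1 lies above 0 in all 10 pairs, in which the same untreated libraries serve for both drugs, and Wnt9a lies below 0 in the 5 rapamycin pairs.

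Counted by libraries that do not overlap, 4 of 10 members separated KO from WT, where 13.2% of all tested genes did so: Wnt9a lay lower, and Wnt9b, Tspan12 and Ctnnb1 lay higher. The numbers were 2 of 10 in KO+P against KO (Lrp5 and Ctnnb1, both lower, 18.7% of all genes), 1 in KO+R against KO (Wnt9a, 24.1%) and 3 in WT+P against WT (Lrp5 and Axin2 lower, Apcdd1 higher, 21.2%). In WT+R against WT there were 6 (Wnt9a, Wnt9b and Axin2 lower, Lrp5, Ctnnb1 and Apcdd1 higher, 28.6%). Only Wnt9a separated KO+P from WT+P (16.6%), and Wnt9b, Ctnnb1 and Apcdd1 separated KO+R from WT+R (19.2%). None of these counts is a test. Wnt9b is counted although it passed the filter on low counts through the libraries where it was high.

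The genes with the pattern most like that of each member were sought among all tested genes, by Pearson's r of log2 CPM over the 16 libraries after the mean of each replicate number was removed. For Wnt9a they were Acp3 (r = 0.96) and Iffo2 (0.96), and for Wnt9b Gatm (0.92) and Naip2 (0.92). For the receptors they were Mylip (0.81) and Arhgap19 (0.80) for Fzd4, Colgalt1 (0.97) and Galnt10 (0.97) for Lrp5, Dnase1l1 (0.96) and Chp1 (0.91) for Tspan12, and Wdr26 (0.94) and Ing1 (0.93) for Reck. Ctnnb1 was closest to Slc46a3 (0.96) and Bcl9l (0.95), Lef1 to Triqk (0.92) and Sh3bp5l (0.92), Axin2 to Pcdhgc5 (0.87) and Ppp2r5c (0.84), and Apcdd1 to Necap1 (0.93) and Smu1 (0.93). Bcl9l encodes a coactivator of beta-catenin and was in the pathway list. The libraries share groups and cultures, and the nearest of 14838 genes will have a high r, so these values describe the libraries and no more.

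Of 100 other genes of the pathway, 74 passed the filter on low counts. Among 18 further ligands only 8 did, led by Wnt5a (median 3.94 TPM), Wnt5b (1.45) and Wnt7a (1.13), while Wnt7b (0.0682 TPM) and Ndp, which encodes Norrin (median 0), did not. Ligand secretion was represented by Wls at 116 TPM. Receptors were led by Adgra2 (168 TPM), Fzd6 (70.9) and Ryk (50.8), secreted inhibitors by Frzb (108 TPM), and targets by Ccnd1 (951 TPM) and Sp5 (50.1). Genes of beta-catenin breakdown and relay were led by Csnk1a1 (130.1 TPM) and nuclear factors by Ctnnbip1 (65.9 TPM). Barrier genes under beta-catenin were led by Cldn5 (1763 TPM). Of the 4 R-spondin genes, which encode secreted amplifiers of Wnt signalling, none passed the filter. The wider R-spondin system was led by Znrf3 (1.3 TPM). Neither edgeR fit called any of 8 barrier genes. Their median log2 fold change was −0.05 in WT+P against WT and −0.01 in WT+R against WT. It was 0.07 in KO+P against KO and 0.22 in KO+R against KO. Cldn5 lay without overlap below WT (1256 to 1678 CPM) in WT+P (397 and 973) and WT+R (603 and 812). Of all genes, 21.2% and 28.6% separated so. It lay below KO (1563 to 2151 CPM) in KO+R (1180.3 to 1552, 24.1%). Under each drug KO exceeded WT without overlap (16.6% with propranolol, 19.2% with rapamycin). Mfsd2a lay higher without overlap in WT+P (1.03 and 2.08 CPM, 21.2% of all genes) and KO+P (0.413 to 2.96 CPM, 18.7%). Untreated it was near the detection limit (0.046 to 0.246 CPM in WT, 0.116 to 0.304 CPM in KO). Also without overlap, Foxq1 lay higher in KO+P (18.7%) and KO+R (24.1%), and Sox17 lower in KO than in WT (13.2%).

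In the edgeR fit without the block, all calls in the list were in the rapamycin comparisons. In KO+R against KO, 2 of 74 genes rose and 1 fell (1.51% of all tested genes were called), and in WT+R against WT none rose and 1 fell (1.4%, a share near that of the list). In the other 7 comparisons edgeR called 0 of 74, with 10, 14, 10, 9 and 7 at an unadjusted p under 0.05 in KO against WT, KO+P against KO, WT+P against WT, KO+P against WT+P and KO+R against WT+R, and 0 and 1 in the interactions with propranolol and rapamycin. Of all 14838 tested genes, 900, 1870, 1464, 918 and 849 reached that unadjusted p in those 5 comparisons, and 107 and 113 in the interactions. DESeq2 called 1, 1, 0, 1 and 1 of the pathway genes in those 5 comparisons and 0 in the interactions. The median log2 fold change of the 74 was 0.03 in both rapamycin comparisons, where that of all genes was −0.02 in KO and −0.01 in WT cells.

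Dvl1 fell in both genotypes. It encodes Dishevelled, the relay between Frizzled and the destruction complex, and measured 202, 173 and 174 CPM in KO and 94.4, 105 and 97.2 CPM in KO+R, and 183, 132 and 141 CPM in WT and 97.9 and 83.7 CPM in WT+R. The log2 fold change was −0.89 (SE 0.13, edgeR adjusted p = 0.00628) in KO and −0.75 (SE 0.15, edgeR adjusted p = 0.0264) in WT cells. The call in WT cells was lost without WT replicate 1, WT replicate 3 or either WT+R library, with an effective length offset and with only the groups compared (edgeR adjusted p from 0.0542 to 0.224). Tas1r3 overlaps 32.5% of the exonic bases of Dvl1.

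Sp5, a direct target of beta-catenin that encodes a zinc finger factor, rose in KO cells from 41.4, 32.9 and 31.2 CPM to 188, 70.7 and 72.6 CPM in KO+R (log2 fold change 1.65, SE 0.34, edgeR adjusted p = 0.032). The KO+R replicate 1 library held the highest of these values, and without it the change was 1.05 (edgeR adjusted p = 0.0846). The call was also lost without any one of the KO libraries, with an effective length offset and with only the groups compared (adjusted p up to 0.141). In WT cells Sp5 went from 59.3, 50.1 and 70.0 CPM to 193 and 119 CPM in WT+R (log2 fold change 1.38, SE 0.37, edgeR adjusted p = 0.0864, and 0.0226 with the block, in a range of 0.000453 to 0.162 over 8 other settings). All KO libraries held less Sp5 than all WT libraries, and 13.2% of all tested genes separated these groups. Targets differed in direction in KO against WT. Of the 6 targets in the list, 4 had a positive log2 fold change. The members Lef1, Axin2 and Apcdd1, also targets, had negative ones like Sp5 (−0.89, −0.29 and −0.16, without a call in either edgeR fit). Nkd1 (3.56 to 5.95 CPM in KO, 0.943 to 1.93 in WT) and Nkd2 (12.8 to 20.4 CPM in KO, 3.08 to 10.4 in WT) lay higher in KO. They did so without overlap, and without a call in either edgeR fit.

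The window before the start of Sp5 (chr2:70305017-70305266 of GRCm39, plus strand, in an intron of the antisense gene Gm75094) is shown as that of the called gene in which the TCF and LEF core was found. Capitals mark both copies, the first of them 204 bases before the RefSeq start.
Sp5: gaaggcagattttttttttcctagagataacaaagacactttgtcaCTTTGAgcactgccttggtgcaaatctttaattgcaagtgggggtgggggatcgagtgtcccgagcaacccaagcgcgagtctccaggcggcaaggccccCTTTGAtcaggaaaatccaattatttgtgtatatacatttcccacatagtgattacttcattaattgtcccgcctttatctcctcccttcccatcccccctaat
A match describes the letters only, and 13.8% of all windows hold one.

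Tle1, a corepressor that binds TCF and LEF factors in the absence of beta-catenin, rose from 48.0, 44.8 and 50.7 CPM in KO to 98.6, 77.0 and 67.6 CPM in KO+R (log2 fold change 0.76, SE 0.13, edgeR adjusted p = 0.0133), and the call was lost without any one of the KO libraries and with only the groups compared (adjusted p from 0.0522 to 0.0634). In WT cells Tle1 went from 66.9, 63.6 and 69.6 CPM to 105 and 94.3 CPM in WT+R, without overlap (28.6% of all genes) and without a call in either edgeR fit. The genes that follow passed the edgeR test with the replicate block and not without it. Ctnnbip1, an inhibitor that keeps beta-catenin from TCF factors, fell by 0.78 in KO+R and by 0.93 in WT+R on the log2 scale (edgeR adjusted p = 0.0429 and 0.043), from 164, 127 and 143 CPM in KO to 89.3, 84.2 and 79.7 CPM. Over 8 settings beside the main one its adjusted p ran from 0.00651 to 0.101 in KO and from 0.00382 to 0.151 in WT cells, and DESeq2 without the block called it in both. Fzd9, a Frizzled receptor, fell by 1.57 in WT+R, from 5.38, 4.67 and 3.36 to 1.21 and 1.98 CPM (edgeR adjusted p = 0.0171, range 0.00021 to 0.256, also called by DESeq2). In KO cells Fzd9 went from 5.81, 4.06 and 3.55 CPM to 2.54, 1.85 and 2.76 CPM in KO+R, without overlap (24.1% of all genes) and without a call in either edgeR fit. Dkk2, a secreted modulator that binds LRP co-receptors, rose by 1.73 in WT+P (edgeR adjusted p = 0.0457, range 2.21e-06 to 0.852), from 4.97, 20.9 and 6.32 to 24.2 and 46.5 CPM, and it was the sole gene of the list called with propranolol in either edgeR fit. In KO cells Dkk2 measured 12.0, 22.7 and 8.88 CPM untreated and 22.1, 42.1 and 27.6 CPM in KO+P, higher in each culture but not called by edgeR.

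**Figure D5:**
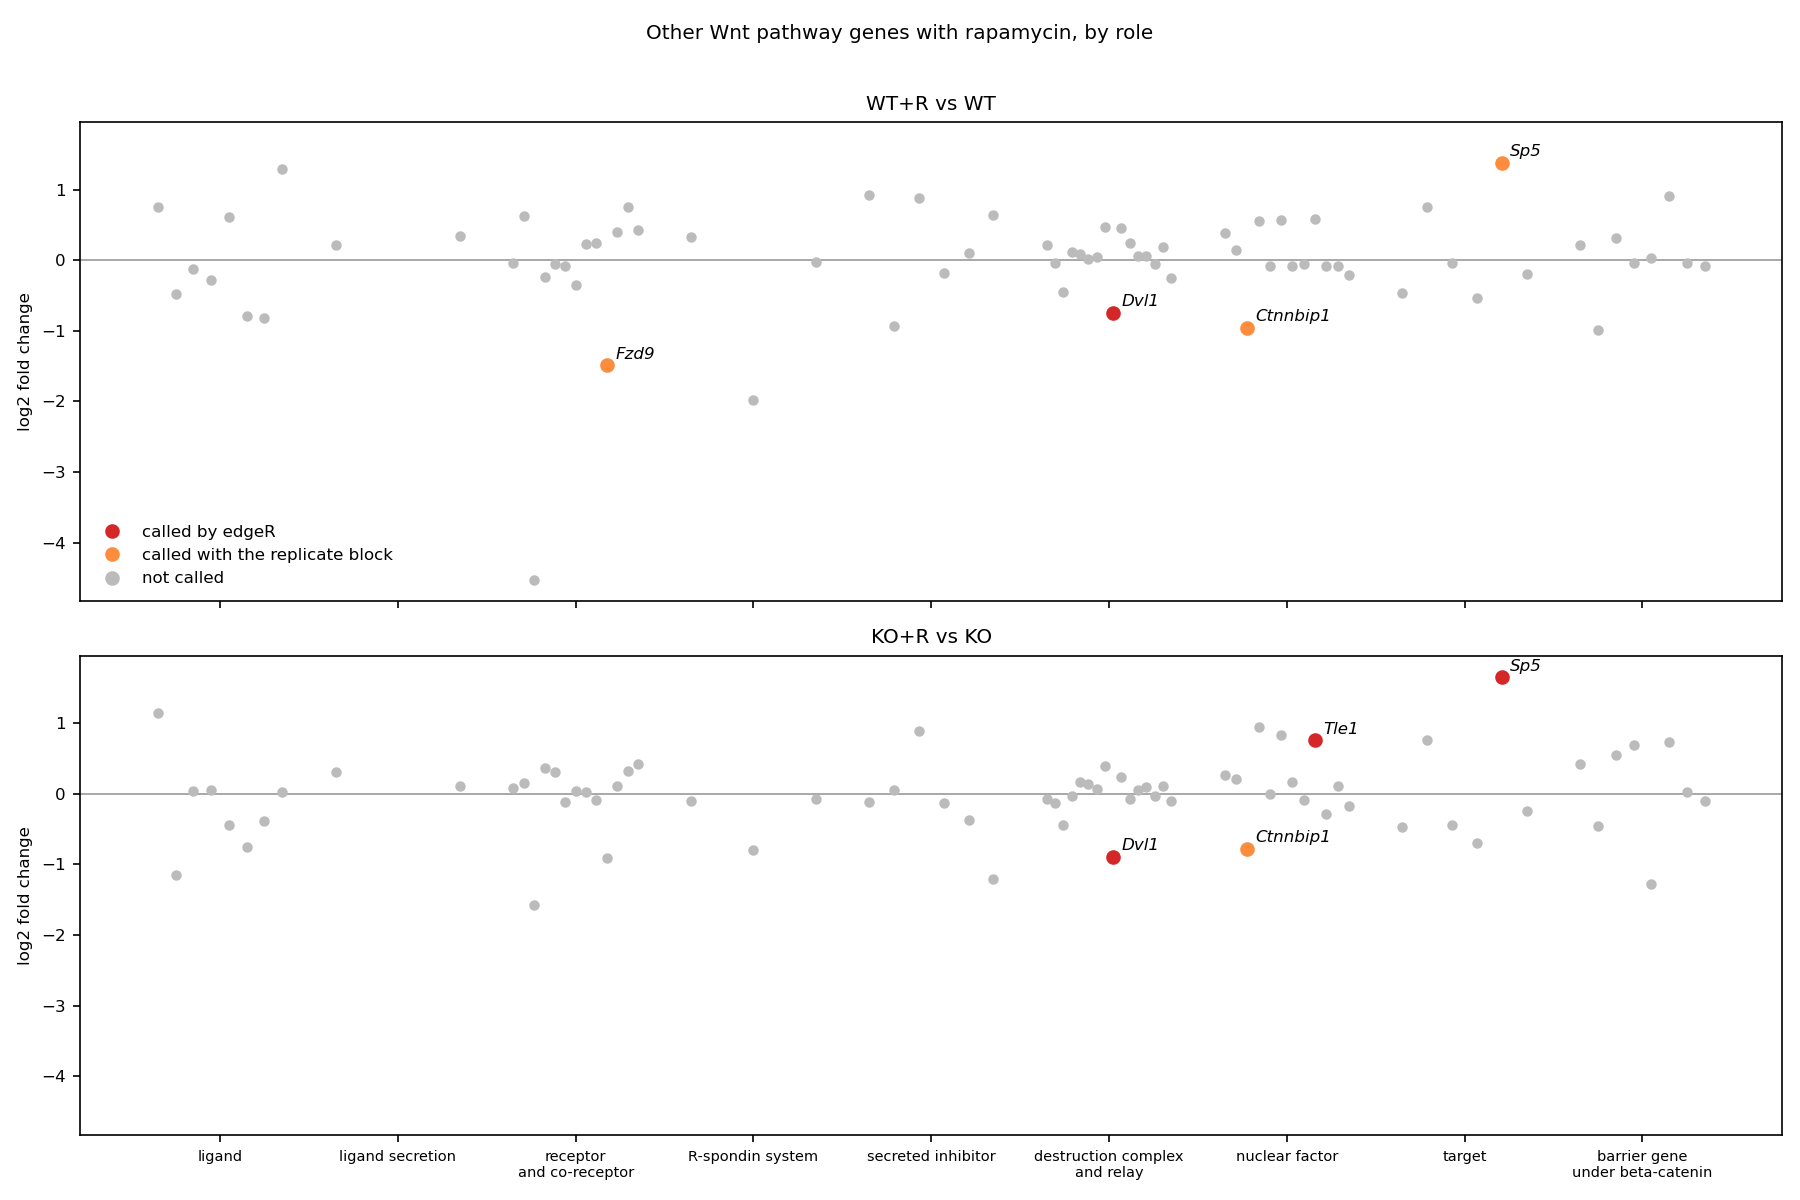
Log2 fold change with rapamycin (y axis) of the 74 other pathway genes that passed the filter, by role (x axis), in WT cells (top) and KO cells (bottom). Red points were called by edgeR, orange points by edgeR with the replicate block, and grey points by neither. Dvl1 lies below 0 in both panels and Sp5 lies highest among the called genes.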

How the data were processed

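The authors deposited estimated counts (expected counts) and TPM per transcript, made with Salmon (1.5.2 in the submitters' processing notes, build GRCm39). The counts were summed per gene with GENCODE vM39 names (99.12% of transcripts matched) and rounded. The deposited TPM were summed likewise and used for levels only, and deposited effective lengths for an alternative. The transcript index was not given in the sources used here. Libraries were polyA-selected and unstranded.

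Genes were filtered by expression and fitted together in all 16 libraries (edgeR 4.0.16, TMM, quasi-likelihood, 10 residual degrees of freedom, Benjamini-Hochberg over 14838 genes), and called at an adjusted p under 0.05 and over 1.5-fold. CPM are TMM-scaled. On simulated data for KO against WT, 72 of 100 genes changed 2-fold and 96 of 100 changed 4-fold were recovered. The simulated counts had a smaller spread than the data (biological coefficient of variation 32.3%) and no replicate effect. These shares check the code and do not give the power of the tests reported here. DESeq2 1.42.0 was an alternative. Log CPM used a prior count of 2.

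Same-numbered libraries deviated together: in the 17 pairs compared, departures from the mean of each group had correlations of 0.19 to 0.69, so a fit with the replicate number as a block is given where it changes a call. The labels call the replicates biological and give no culture or date, so p-values measure the spread between these samples.

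Fold changes are given where an unadjusted p was under 0.05 with or without the block. Other pathway genes are named where either fit called them or where they led their role by TPM. Nkd1 and Nkd2 are named as targets beside Sp5, and Mfsd2a, Foxq1 and Sox17 as barrier genes beside Cldn5. The members and lists were chosen with earlier results of these data known. A gene of the pathway is not reported here and was left out of the list and its counts.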

Additional observations from a re-analysis of the deposited data

How the results depend on the processing

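With 2 or 3 libraries a group and a biological coefficient of variation of 32.3% (19% with the replicate block), small changes were not detectable. Counting error limits Wnt9b and Axin2, and intervals and limits from counts cover counting error only. Leaving out a library uses a spread pooled over groups, so a lone library was assumed to vary like the rest.

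In the fit as reported, 0 of 10 members were called in all 9 comparisons, and 0 when each library was left out, the library labelled WT replicate 1 included. With the replicate block 1 member was called in KO+R against KO, and none in the other comparisons. DESeq2 also called 1 there. DESeq2 with the replicate block called 2 in KO against WT, 2 in KO+P against KO, and 1 each in KO+R against KO, WT+R against WT and KO+P against WT+P. The replicate block without WT replicate 1 called 1 in KO against WT, which was Wnt9b, and 1 in KO+R against KO. That fit called 0.445% and 4.77% of all tested genes in these comparisons. As Wnt9b entered the test through the libraries where it was high, its calls are counted as a description only.

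Of the pathway genes, the replicate block called 1 in WT+P against WT and 4 in WT+R against WT (0.0809% and 4.56% of all tested genes). Without WT replicate 1 the blocked fit called 1 in KO against WT and 5 in KO+R against KO (0.445% and 4.77%). DESeq2 called 1 in KO against WT, 1 in KO+P against KO, 4 in WT+R against WT, 1 in KO+P against WT+P and 1 in KO+R against WT+R. DESeq2 with the replicate block called 4, 8, 7, 1, 7, 4 and 3 in KO against WT, KO+P against KO, KO+R against KO, WT+P against WT, WT+R against WT, KO+P against WT+P and KO+R against WT+R. In WT+R against WT the count was 3 with no filter on low counts (0.966% of all tested genes), 0 with an effective length offset (1.04%) and 0 with only the groups compared (0.0576%). Leaving out 1 library gave 0 to 2 in KO+P against KO (2 without KO+P replicate 3), 1 to 3 in KO+R against KO (1 without any one KO library), 0 to 2 in WT+P against WT (2 without WT+P replicate 2) and 0 to 1 in WT+R against WT (0 without WT replicate 1, WT replicate 3 or either WT+R library). Of all tested genes, 2.24% were called in KO+P against KO without KO+P replicate 3. In WT+P against WT 3.54% were called without WT+P replicate 2. The fits without 1 library called 0.344% to 0.59% in KO+R against KO and 0.162% to 0.949% in WT+R against WT. The cause of these shifts was not tested.

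Of single genes, 1 value turned, Lef1 in WT+P against WT, from −0.18 to 1.21 when single libraries were left out. Over the other settings, 250 single-gene values kept direction and side of the threshold, 32 gained a call and 5 lost one, and over the fits without 1 library 192 kept both and 11 lost a call. Over all tested genes the replicate block called 739 in KO+R against KO, where the fit without it called 224.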
